A study of Mus musculus with 8 samples.

Results

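Immediate early genes of the NR4A and EGR families and 4 further members of the class, 10 genes in all, were examined in sorted intestinal tuft cells of mice given the muscarinic receptor antagonist scopolamine and of sham mice. Members were found as the rows of the deposited count table whose symbol equals Nr4a1, Nr4a2, Nr4a3, Egr1, Egr2, Egr3, Arc, Ier2, Ier3 or Dusp1, and all 10 were present among 35199 listed genes. The comparison addresses how tuft cells differ in mice whose muscarinic acetylcholine receptors are blocked. The study found these receptors barely expressed in the sorted cells themselves and proposes Prox1-positive cells as the sensors of the blockade. Every mouse carried a Dclk1-DTR-ZSgreen transgene, a bacterial artificial chromosome in which the Dclk1 locus drives the diphtheria toxin receptor and the green reporter, on a background backcrossed to C57BL/6J. Scopolamine was delivered at 0.5 mg per kg per day for 7 days by an implanted osmotic pump, and sham mice received sodium chloride. Mice were aged 8 to 10 weeks at implantation, and the live, epithelial, ZSgreen-positive cells of the jejunum were sorted. Each group held 4 mice with 1 library each; scopolamine mice are replicates 1 to 4 and sham mice replicates 5 to 8.

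Immediate early genes are transcribed soon after a cell is stimulated and need no newly made protein for their induction. Growth factors, calcium and cyclic AMP reach their promoters through the MAP kinases, through serum response factor and its ternary complex partners at serum response elements, and through CREB at cyclic AMP response elements. The NR4A proteins are orphan nuclear receptors whose activity is set by their amount rather than by a known hormone, and the EGR proteins are zinc finger factors that bind GC-rich DNA. Tuft cells, sparse sensory cells of the gut lining, themselves signal through calcium. Genes of this class are also known to be induced while tissue is being dissociated for sorting.

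The sequences upstream of 5 of the genes are shown because 4 of these genes (Nr4a1, Nr4a2, Egr2 and Dusp1) were highest in the same mice and Nr4a3 was not. RefSeq windows (GRCm38.p6) were matched for 6 of the 10 members, Nr4a1, Nr4a2, Nr4a3, Egr2, Ier3 and Dusp1, and not for Egr1, Egr3, Arc or Ier2. The 250 bases before each start were searched on both strands, and only the part outside annotated exons is printed, on the strand of the gene. Capitals mark the core (TGACG) of the cyclic AMP response element, the EGR site (GCGGGGGCG or GCGTGGGCG) and the CArG box of serum response factor. The AP-1 site (TGACTCA), the NR4A response element (AAAGGTCA) and the whole cyclic AMP response element (TGACGTCA) were also searched, and a whole element counts as 2 cores. Nr4a1 is read from chr15:101266596-101266845 (plus strand), Nr4a2 from chr2:57124004-57124253 (minus), Nr4a3 from chr4:48045055-48045152 (plus), Egr2 from chr10:67537619-67537868 (plus) and Dusp1 from chr17:26508520-26508722 (minus).
Nr4a1: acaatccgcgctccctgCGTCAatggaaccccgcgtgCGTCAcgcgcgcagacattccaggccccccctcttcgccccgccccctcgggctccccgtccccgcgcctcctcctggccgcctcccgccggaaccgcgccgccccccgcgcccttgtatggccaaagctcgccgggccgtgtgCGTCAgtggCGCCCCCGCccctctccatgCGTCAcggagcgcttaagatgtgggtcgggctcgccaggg
Nr4a2: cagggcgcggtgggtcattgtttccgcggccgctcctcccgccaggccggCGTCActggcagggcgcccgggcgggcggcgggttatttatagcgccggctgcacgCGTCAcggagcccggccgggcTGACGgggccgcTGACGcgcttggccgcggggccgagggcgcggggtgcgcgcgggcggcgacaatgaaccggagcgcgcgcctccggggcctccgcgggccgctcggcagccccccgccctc
Nr4a3: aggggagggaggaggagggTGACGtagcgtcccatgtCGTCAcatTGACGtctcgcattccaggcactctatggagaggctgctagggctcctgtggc
Egr2: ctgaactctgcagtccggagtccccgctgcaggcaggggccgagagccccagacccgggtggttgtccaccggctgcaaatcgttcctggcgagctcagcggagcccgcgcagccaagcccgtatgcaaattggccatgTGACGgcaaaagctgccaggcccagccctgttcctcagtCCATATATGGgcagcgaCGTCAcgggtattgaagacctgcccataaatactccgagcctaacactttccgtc
Dusp1: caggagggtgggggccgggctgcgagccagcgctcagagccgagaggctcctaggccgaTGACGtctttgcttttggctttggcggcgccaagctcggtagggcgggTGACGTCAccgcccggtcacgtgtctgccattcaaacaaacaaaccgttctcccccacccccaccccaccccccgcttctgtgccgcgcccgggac

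Each of the 3 NR4A windows held 4 cores, of which Nr4a3 has 3 in the printed part. A core was found in 17.8% of the 32841 upstream windows of the same length, and 4 or more in 0.137%. Dusp1 held 3 cores, including 1 whole element, which 1.55% of the windows hold. Egr2 has 5 windows, for different annotated starts, of which 1 holds no motif, 1 a CArG box alone and 3 that overlap each other 2 cores and 1 CArG box. The window shown is 1 of those 3. The window of Ier3, which is not printed, held none of the motifs searched. A CArG box was found in 1.47% of the windows, and the EGR site that Nr4a1 holds in 3.06%. AP-1 sites (4.46% of the windows) and NR4A response elements (1.34%) were not among the letters of the members' windows. These matches describe letters only and say nothing about which factors bind.

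The total estimated count was 14343362 to 20857433 per scopolamine library and 25769940 to 41428916 per sham library, so that every sham library was the deeper, and 3 counts, used as the floor, equalled 0.0724 to 0.209 units of CPM (counts scaled to a common library size). Sham replicates 5 and 7 were made from 200 pg of RNA with 15 cycles of amplification, and the 6 other libraries from 1000 pg with 10 cycles. The mouse IDs fall into an M series (scopolamine replicates 1 to 3 and sham replicate 5) and an N series (scopolamine replicate 4 and sham replicates 6 to 8), whose meaning the labels do not give. The sorted cells carried the markers of tuft cells, since 14 of 14 markers passed the expression filter and their summed level was 12199 to 21704 CPM with scopolamine and 15094 to 18534 CPM in sham. In such bulk libraries a higher value in more cells and a higher value per cell cannot be told apart.

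Levels per length differed widely among the members. As CPM per kilobase of annotated exon, averaged over 8 libraries, Ier2 came first at 113, with libraries between 66.4 and 145. Dusp1 followed at 7.91, Egr1 at 6.62 and Ier3 at 6.29, then Nr4a1 at 0.882, Nr4a2 at 0.823, Arc at 0.694, Egr2 at 0.18 and Nr4a3 at 0.0590. The range of Ier2 lay above those of all other members, whereas every other pair of neighbours in this order overlapped across libraries. Egr3 had 1, 1, 0 and 0 counts with scopolamine and 0 in each sham library, all at or below the floor, so no fold is given for it.

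By edgeR's quasi-likelihood test 0 of the 10 members passed an adjusted p of 0.1 (Benjamini-Hochberg), as 0% of the 12849 genes past the expression filter and 0% of the 21805 genes with any count did. The filter kept 5 members (Nr4a2, Egr1, Ier2, Ier3 and Dusp1), and the other 5 were read from the fit over all genes with a count. At an unadjusted p under 0.05 there was 1 of the 5 members past the filter (Nr4a2), against 5.99% of all genes tested, and 2 of the 5 removed by it (Nr4a1 and Arc), against 8.4%. DESeq2 gave 2 members (Nr4a1 and Arc) an adjusted p under 0.1, both higher with scopolamine, where 1.01% of its tested genes were called in that direction. The study had already named both among its top genes from these libraries, so setting them against that share is no independent evidence. On counts simulated from the genes past the filter, DESeq2 made more false calls than its threshold allows, and edgeR did not. Genes removed by the filter were not simulated, so the outcome does not tell how reliable the calls of Nr4a1 and Arc are. In the same simulation edgeR missed more of the true changes than DESeq2, among them many of the smaller ones, so the absence of edgeR calls does not show that the members did not differ. Limma-voom called 0 of the 5 members past the filter. In the fit without the filter the log2 fold change was above 0 for 8 of the 9 members other than Egr3 and below 0 for Nr4a3, with a median of 1.22, and 48.9% of all genes in that fit were above 0, with a median of -0.017. The 5 members past the filter had a median of 0.37, and all genes past it -0.011. Only Nr4a1 had groups that did not overlap, as 1.44% of the genes with a count did in this direction.

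**Figure D1:**
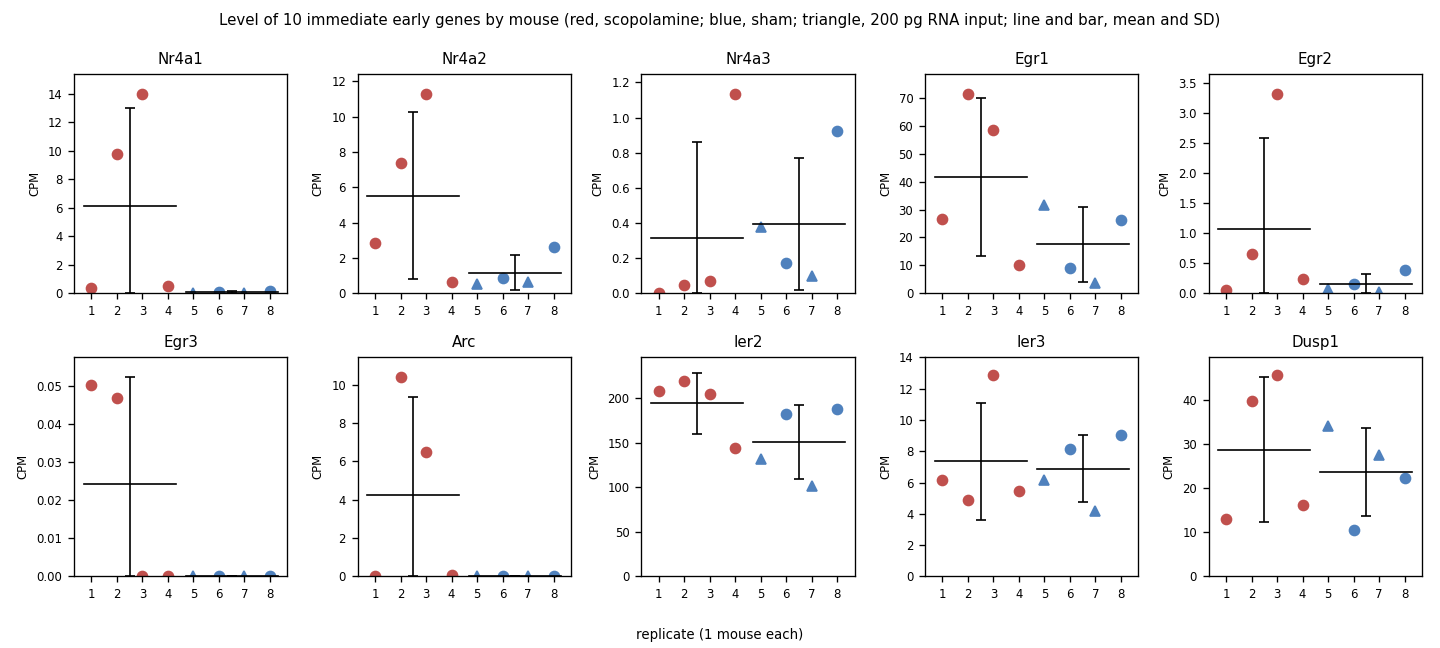
Level of each member (y axis, CPM, linear) in each library (x axis, replicate; red scopolamine, blue sham, triangles 200 pg of RNA), with the mean as a line and the SD as a bar drawn no lower than 0. Scopolamine replicates 2 and 3 hold the 2 highest points for 6 members, and scopolamine replicate 4 the highest for Nr4a3.

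Nr4a1 (also known as Nur77; ENSMUSG00000023034.7, chromosome 15 from 101254269 to 101274795, GRCm38) stood at 0.351, 9.73, 14.0 and 0.473 CPM in scopolamine replicates 1 to 4 and at 0, 0.0973, 0.0248 and 0.119 CPM in sham replicates 5 to 8. Every scopolamine-treated mouse lay above every sham mouse, but the lowest of them had 7 and 10 counts and the highest sham libraries 4. With scopolamine the mean was 6.13 ± 6.83 CPM and in sham 0.0603 ± 0.0570 CPM (SD, n = 4 each). On the log2 scale the fold change was 6.49 (standard error, SE, 1.54), and the Benjamini-Hochberg adjusted p was 0.587 by edgeR and 3.43e-04 by DESeq2. Permuting the mice exactly gave p = 0.0286 for log2 CPM (two-sided), the smallest that 4 against 4 mice allow and unadjusted for the 10 members tested. The log2 fold change of Nr4a1 was 5.74 without scopolamine replicate 3, 5.71 without the sham libraries made from 200 pg and 5.31 with a term for mouse ID series. Without scopolamine replicates 2 and 3, a choice made after their values were seen, the log2 fold change of Nr4a1 was 2.65 (edgeR, adjusted p = 0.936 after Benjamini-Hochberg).

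Nr4a2 (Nurr1; ENSMUSG00000026826.13, chromosome 2 from 57106830 to 57124003), a receptor best known from dopaminergic neurons, was measured at 2.86, 7.35, 11.3 and 0.614 CPM with scopolamine and at 0.492, 0.875, 0.619 and 2.63 CPM in sham. Scopolamine replicates 1 to 3 lay above all sham mice, while replicate 4 lay among them. Between the groups Nr4a2 had a log2 fold change of 2.25 (SE 0.98; edgeR, adjusted p = 0.812 after Benjamini-Hochberg). It was 1.64 without scopolamine replicate 3 and 3.05 without sham replicate 8. It was 1.62 without the sham libraries made from 200 pg, 1.35 with a term for mouse ID series and 0.58 without scopolamine replicates 2 and 3. Nr4a3 (Nor1; ENSMUSG00000028341.9, chromosome 4 from 48045153 to 48086447), the remaining receptor of the family, had 0, 1, 1 and 24 counts with scopolamine and 10, 7, 4 and 31 in sham. In CPM these were 0, 0.0468, 0.0705 and 1.13 with scopolamine against 0.379, 0.170, 0.0991 and 0.925 in sham. Thus 3 of the 4 scopolamine-treated mice lay below every sham mouse, each at or below the floor, and the fourth above all of them. Its log2 fold change of -0.36 (SE 1.51; edgeR, adjusted p = 0.971 after Benjamini-Hochberg) took either sign depending on the mice included. It was -3.28 when scopolamine replicate 4 was left out and 0.56 when sham replicate 8 was.

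Egr1 (ENSMUSG00000038418.7, chromosome 18 from 34859823 to 34864984), the best known target of the ERK pathway among the EGR factors, was measured at 26.8, 71.7, 58.7 and 10.1 CPM with scopolamine. In sham it was measured at 31.5, 9.02, 3.49 and 26.3 CPM. The groups overlapped, with scopolamine replicates 2 and 3 above all sham mice and the other 2 within their range. For Egr1 the log2 fold change was 1.25 (SE 0.71; edgeR, adjusted p = 0.817 after Benjamini-Hochberg). It was 0.19 (SE 0.74) once mouse ID series entered as a covariate, and without scopolamine replicates 2 and 3 it was 0.066. Within the M series, sham replicate 5, its only sham mouse, stood above scopolamine replicate 1 and below scopolamine replicates 2 and 3. Within the N series scopolamine replicate 4, its only treated mouse, stood between sham mice.

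Egr2 (Krox20; ENSMUSG00000037868.15, chromosome 10 from 67535475 to 67542188), a relative of Egr1 that directs myelination in Schwann cells, had 1, 14, 47 and 5 counts with scopolamine and 2, 6, 1 and 13 in sham. These counts equal 0.0501, 0.655, 3.32 and 0.236 CPM against 0.0757, 0.146, 0.0248 and 0.388 CPM. Scopolamine replicates 2 and 3 again stood highest, and replicate 1 lay among the lowest libraries. For Egr2 the log2 fold change was 2.65 (SE 1.47; edgeR, adjusted p = 0.622 after Benjamini-Hochberg), and it was 0.96 without scopolamine replicate 3 and 3.60 without sham replicate 8. Without scopolamine replicates 2 and 3 together the sign of the Egr2 value turned, to -0.15. Egr3 (ENSMUSG00000033730.4, chromosome 14 from 70077203 to 70082614), whose 2 counts in all are given above, was not detectable beyond the floor in any library.

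Arc (ENSMUSG00000022602.14, chromosome 15 from 74669083 to 74672570), which encodes a postsynaptic protein that regulates the uptake of glutamate receptors, had 0, 222, 92 and 1 counts with scopolamine and 0, 1, 1 and 0 in sham. Its level was 10.4 CPM in scopolamine replicate 2 and 6.49 CPM in replicate 3, against at most 0.0473 CPM in any of the other 6 libraries. Summed over mice, 315 counts stood against 2, a ratio of rates of 291. Its 95% exact interval of 79.8 to 2410 covers the error of counting reads only and not the spread between mice. On the log2 scale Arc differed by 7.86 (SE 2.07), and the Benjamini-Hochberg adjusted p was 0.587 by edgeR and 0.0129 by DESeq2. Leaving out scopolamine replicate 2 gave 6.92, and the range over each library left out was 6.92 to 8.29. The exact permutation p for Arc was 0.171 (two-sided, unadjusted). Without scopolamine replicates 2 and 3, 1 count stood against 2, under the floor in both groups, so no fold is given for that choice. With the mouse ID series in the model the log2 fold change of Arc was 4.96.

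Ier2 (ENSMUSG00000053560.4, chromosome 8 from 84661331 to 84662852), a small nuclear protein, was the most abundant member. It was measured at 209, 220, 205 and 144 CPM with scopolamine and at 132, 183, 101 and 188 CPM in sham. Scopolamine replicates 1 to 3 stood above every sham mouse, and both sham libraries made from 200 pg were the lowest. Ier2 had a log2 fold change of 0.37 (SE 0.22; edgeR, adjusted p = 0.83 after Benjamini-Hochberg) and of 0.043 without those libraries. Ier3 (ENSMUSG00000003541.6, chromosome 17 from 35821684 to 35822923), a stress-responsive regulator of cell survival, was measured at 6.16, 4.91, 12.9 and 5.44 CPM with scopolamine and at 6.13, 8.14, 4.21 and 9.01 CPM in sham. Scopolamine replicate 3 alone exceeded the sham range. Ier3 had a log2 fold change of 0.096 (SE 0.54; edgeR, adjusted p = 0.992 after Benjamini-Hochberg), and it was -0.32 without that mouse.

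Dusp1 (ENSMUSG00000024190.7, chromosome 17 from 26505590 to 26562128), a phosphatase that switches off MAP kinases, was measured at 13.1, 39.8, 45.7 and 16.3 CPM with scopolamine. In sham it was measured at 34.2, 10.6, 27.6 and 22.4 CPM. Scopolamine replicates 2 and 3 were the highest libraries, replicates 1 and 4 were below 3 of the 4 sham mice, and both sham libraries made from 200 pg were above both made from 1000 pg. For Dusp1 the log2 fold change was 0.28 (SE 0.47; edgeR, adjusted p = 0.953 after Benjamini-Hochberg). It was 0.76 without the sham libraries made from 200 pg, -0.69 without scopolamine replicates 2 and 3, -0.040 without replicate 3 alone and -0.18 when mouse ID series was modelled. The annotated span of Dusp1 overlaps Ergic1 and the pseudogene Gm8225 on the opposite strand and 2 further loci on its own. Whether counting used strand is not stated, and reads could be shared there, and no other member overlaps an annotated gene.

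**Figure D2:**
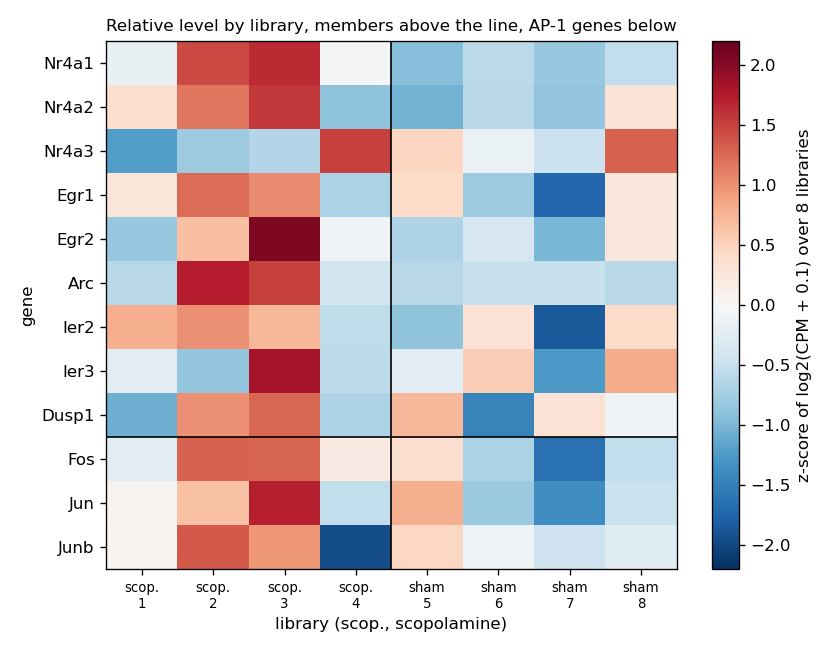
Relative level of 9 members, Egr3 left out, and of the AP-1 genes Fos, Jun and Junb (rows) in the 8 libraries (columns), as a z-score of log2(CPM + 0.1) within each row, with red above and blue below the row's mean. Scopolamine replicates 2 and 3 are red in most rows, and Nr4a3 is blue in both.

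The same pair of libraries was highest for most members. Nr4a1, Nr4a2, Egr1, Egr2, Arc and Dusp1, 6 of the 10 members, were each highest in scopolamine replicates 2 and 3, as 3.32% of the genes with a count were, a pattern that was noticed in these values and is given as a description. Counting only values above the floor, replicate 2 exceeded every sham mouse for 7 members, where 17% of the genes with a count did, and replicate 3 for 8 members, where 16.1% did. Replicate 1 did so for 3 members (13% of the genes) and replicate 4 for 2 (17.3%). Without replicates 2 and 3, 5 of the 8 log2 fold changes that could be given were above 0, and their median was 0.14 in place of 0.81 in the same 8 members. Since these mice were picked for their high values, leaving them out had to lower the median. Nr4a1 in scopolamine replicates 1 and 4 also lay above every sham mouse.

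**Figure D3:**
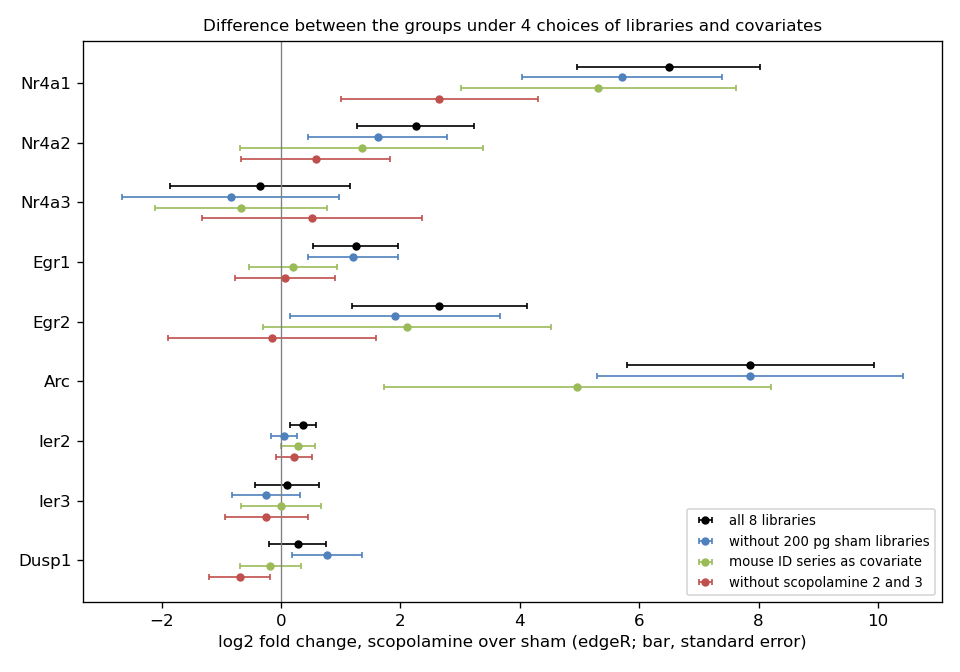
Log2 fold change of 9 members between scopolamine and sham (x axis; points are edgeR estimates, bars are standard errors) for all 8 libraries, without the sham libraries made from 200 pg, with mouse ID series as a covariate, and without scopolamine replicates 2 and 3. Nr4a1 moves from 6.49 to 2.65 when those 2 mice are left out, and Arc, then under the floor, has no point for that choice.

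Other immediate early transcription factors were read from a list of 25 genes, of which 21 passed the filter and 0 passed that threshold in edgeR. Of the 21, 16 had a log2 fold change above 0 and 5 below, with a median of 0.23, and DESeq2 called Cebpd. Egr4 and Npas4, an EGR factor and an activity-dependent factor of neurons, had no count in any library. Fos, the AP-1 partner most often induced with Egr1, was measured at 10.9, 80.8, 80.6 and 18.7 CPM with scopolamine and at 23.2, 5.81, 1.61 and 7.22 CPM in sham. Its 2 highest libraries were again scopolamine replicates 2 and 3, and its log2 fold change was 2.34 (SE 0.83; edgeR, adjusted p = 0.812 after Benjamini-Hochberg). Jun had a log2 fold change of 0.53 and Junb of 0.077, with Benjamini-Hochberg adjusted p of 0.821 and 0.975 in edgeR. Atf3, a stress-induced factor of the CREB family, was measured at 5.96, 12.4, 16.2 and 4.87 CPM with scopolamine and at 6.02, 0.511, 0.0991 and 1.46 CPM in sham. Its groups overlapped through scopolamine replicates 1 and 4 and sham replicate 5.

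Cebpd, a leucine zipper factor of acute inflammatory responses, was steadier across mice than the members. It was measured at 37.9, 44.5, 46.5 and 44.8 CPM with scopolamine and at 32.9, 33.5, 29.3 and 28.6 CPM in sham, so that the groups did not overlap. Cebpd differed by 0.48 on the log2 scale (SE 0.19), and the Benjamini-Hochberg adjusted p was 0.812 by edgeR and 0.0404 by DESeq2. Of 31 other immediate early and feedback genes, 27 passed the filter, 17 had a log2 fold change above 0 and 10 below, and 0 had an adjusted p under 0.1 in edgeR or DESeq2. The median of these 27 was 0.33. Rhob, a small GTPase induced by stress, averaged 41.2 ± 9.65 CPM in treated mice and 24.3 ± 7.31 CPM in sham mice (SD, n = 4 each). Nfkbia, the inhibitor of NF-kB that NF-kB itself induces, was measured at 232 ± 37.2 CPM and 185 ± 24.5 CPM (SD, n = 4 each), and Nfkbiz at 32.0 ± 11.8 CPM and 19.2 ± 7.33 CPM (SD, n = 4 each).

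The genes that carry signals to these promoters showed a median close to that of all genes. Of 26 such genes (serum response factor and its partners, CREB and its coactivators, the MAP kinase chain and NFAT), all 26 passed the filter, 15 had a log2 fold change above 0 and 11 below, and 0 had an adjusted p under 0.1 in edgeR or DESeq2. Their median was 0.070. Rps6ka1, a kinase activated by ERK, was measured at 192, 263, 247 and 243 CPM with scopolamine and at 206, 162, 121 and 127 CPM in sham. The groups overlapped through scopolamine replicate 1 and sham replicate 5, and the log2 fold change of Rps6ka1 was 0.62 (SE 0.19; edgeR, adjusted p = 0.812 after Benjamini-Hochberg). Nfatc3, a calcium-regulated factor, had a log2 fold change of 0.58 and Elk3, a ternary complex factor, of 1.77 at a mean of 0.997 CPM with scopolamine and 0.289 CPM in sham. Of 5 partners and corepressors of the EGR and NR4A proteins 4 passed the filter, with 2 above 0 and 2 below. Among them Rxra, which pairs with Nr4a1 and Nr4a2, had a log2 fold change of 0.98 (SE 0.81), Rxrb of 0.16 and Nab2, a corepressor of EGR factors, of -0.23, and no adjusted p was under 0.1 in edgeR.

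Heat shock genes, known to respond to dissociation, were read beside the members. All 12 passed the filter, 10 had a log2 fold change above 0 and 2 below, with a median of 0.38, and 0 had an adjusted p under 0.1 in edgeR or DESeq2. Their summed level was 2451 to 3736 CPM with scopolamine and 2473 to 3539 CPM in sham, and was highest in scopolamine replicate 4, sham replicate 5 and scopolamine replicate 3 (3437 CPM). Of these, scopolamine replicate 3 was the highest library for Nr4a1, Nr4a2, Egr2, Ier3 and Dusp1, sham replicate 5 the highest sham mouse for Egr1 and Dusp1, and scopolamine replicate 4 the highest library for Nr4a3. Scopolamine replicate 2, first or second for 7 members above the floor, had a sum of 2618 CPM, below sham replicates 7 (2958 CPM) and 8 (2654 CPM). Of these sums Hsp90aa1 alone made up 473 CPM in scopolamine replicate 2 and 1161 and 1191 CPM in sham replicates 7 and 8. Hspa1a, the most inducible chaperone of the list, was measured at 12.5, 45.2, 97.7 and 47.1 CPM with scopolamine and at 30.3, 19.1, 17.7 and 8.80 CPM in sham. Dnajb1 had a log2 fold change of 0.63 and Hsp90aa1 of -0.53, so the directions within the list differed. The part of dissociation in the levels of the members was not tested.

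Markers of other cells also varied between libraries. The 12 enterocyte markers, none of them at 0, summed to 3311, 7124, 6343 and 3626 CPM in scopolamine replicates 1 to 4 and to 6684, 2557, 2694 and 2557 CPM in sham replicates 5 to 8. The highest sums were thus those of scopolamine replicates 2 and 3 and sham replicate 5, and sham replicate 5 was also the highest sham mouse for Egr1 (31.5 CPM), Dusp1 (34.2 CPM), Fos (23.2 CPM) and Atf3 (6.02 CPM). In the same library Nr4a1 and Arc had 0 counts and Nr4a2 (0.492 CPM) was at its lowest. The 12 lymphocyte markers, none at 0 in all libraries, summed to 45.5, 133, 33.1 and 27.2 CPM in scopolamine replicates 1 to 4. In sham replicates 5 to 8 they summed to 159, 5.45, 5.94 and 2.92 CPM. Sham replicate 5 was thus the highest and scopolamine replicate 2 the next, and every scopolamine library lay above sham replicates 6 to 8. Sums of 17 enteroendocrine markers were 459 to 1093 CPM with scopolamine and 184 to 1510 CPM in sham, and those of 12 goblet and Paneth cell markers 726 to 3598 CPM and 373 to 1445 CPM. The 9 stem and cycling cell markers (160 to 299 CPM and 207 to 295 CPM), the 10 macrophage and mast cell markers (84.7 to 126 CPM and 93.2 to 113 CPM) and the 9 markers of neurons and glia (3.98 to 10.9 CPM and 3.90 to 7.50 CPM) overlapped between the groups, and the glial factor Sox10 was at 0 in all libraries. Of the enterocyte markers 12 of 12 had a log2 fold change above 0 (median 1.64; DESeq2 called Slc5a1 and Anpep), as did 12 of 12 goblet and Paneth cell markers (median 1.5), against 8 of the 10 lymphocyte and 11 of the 14 enteroendocrine markers past the filter (DESeq2 called Scg3). The part of other cells in the levels of the members was not tested.

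**Figure D4:**
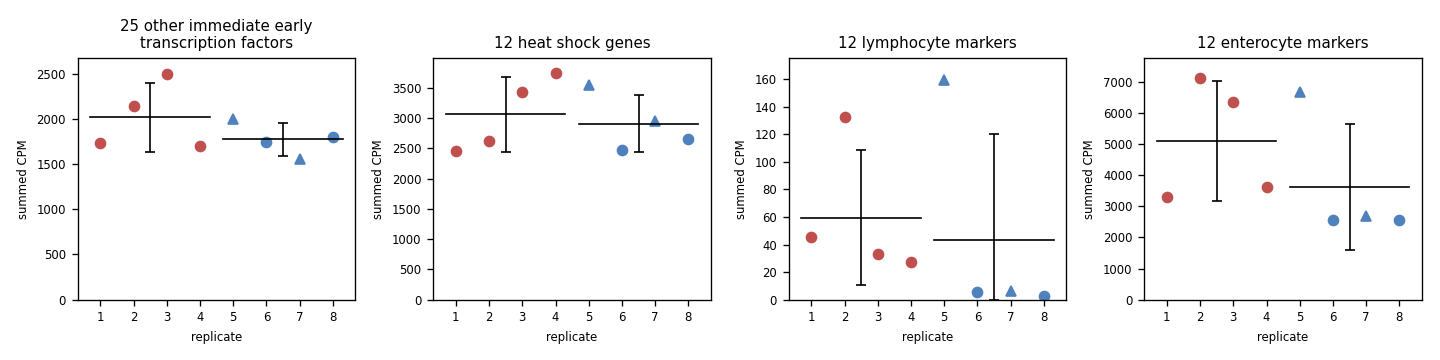
Summed level (y axis, CPM) of 25 other immediate early transcription factors, 12 heat shock genes, 12 lymphocyte markers and 12 enterocyte markers in each library (x axis, replicate; red scopolamine, blue sham, triangles 200 pg of RNA), with the mean as a line and the SD as a bar drawn no lower than 0. Scopolamine replicates 2 and 3 are highest for the transcription factors, while sham replicate 5 is the highest for lymphocyte markers and among the 3 highest for enterocyte markers.

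The genes most like a member across the 8 libraries were found by Pearson's r of log2 CPM among 14684 genes with at least 10 counts in at least 2 libraries, as a description that carries no test. For Nr4a1 these were Ano1 (r = 0.960), Klk1b5, 5430437J10Rik, Fam199x and Dnmbp, with Arc ranked 7, Nr4a2 44 and Egr2 71. Ano1, a calcium-activated chloride channel, was measured at 0, 1.69, 4.37 and 0.0945 CPM with scopolamine and at most 0.0243 CPM in sham, so its likeness to Nr4a1 rests on scopolamine replicates 2 and 3. For Egr1 the closest were Ranbp6 (r = 0.982), Foxq1, Ablim3, Aspm and Parp4, with Jun ranked 30 and Fos 39. Ranbp6, an importin relative, followed Egr1 in sham mice too, at 10.1, 1.46, 0.594 and 4.69 CPM. For Dusp1 the closest were Hoxc4 (r = 0.935), Tinag, Ttc13, Gls2 and Fabp6, a bile acid carrier of the distal small intestine, and Arc ranked 375.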

How the data were processed

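RNA of sorted ZSgreen-positive cells (3000 in replicates 1 and 5, 4000 in the others) was amplified to cDNA. The authors trimmed reads with bcl2fastq 2.20, assigned them to the GRCm38 transcriptome with kallisto 0.44.0 (versions per the labels) and summed transcripts with tximport. The deposited estimated counts per gene are whole numbers without normalization, and rounding changed 0 of them. Annotation release and use of strand are not given in the sources used here. Intervals and floors cover the error of counting reads only. Reads carry no molecular identifiers, so amplified copies of a molecule count as separate reads and the intervals may be too narrow.

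The 4 scopolamine and 4 sham libraries were tested by quasi-likelihood in edgeR 4.0.16 (R 4.3.3), after filterByExpr and TMM scaling and with p adjusted by Benjamini-Hochberg, at the study's threshold of 0.1. CPM use the TMM factors, and log2 CPM add a prior count of 2. Other choices tried were DESeq2 1.42.0, voom in limma 3.58.1, other scalings, no filter, covariates, and leaving out libraries. Exact permutation tests used 70 assignments. Both tools were run on counts simulated, with known changes, from the genes past the filter in these libraries. The share of false calls there exceeded the threshold for DESeq2 and not for edgeR, and edgeR missed more true changes. Coordinates and exon lengths are from GENCODE M21 (GRCm38). Effective lengths were not used. The members and lists were chosen with earlier results of these data known. Named genes are all members, the 3 smallest p of each related list, Fos, Jun and Junb, and the 5 genes most like Nr4a1, Egr1 and Dusp1. Also named are some listed genes at 0 in all libraries, cell type markers called by DESeq2 and loci that overlap Dusp1. 4 listed symbols were matched through RefSeq synonyms. Every 2 libraries differed beyond counting noise.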

Additional observations from a re-analysis of the deposited data

Results flagged for a closer look

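Among 20 groups of 4 libraries (10 members in 2 groups), 2 held a library far from the other 3 by Dixon's test, and about 1 in 20 is flagged by chance. Nr4a3 reached 1.13 CPM (24 counts) in scopolamine replicate 4, against at most 1 count in the other scopolamine libraries. Ier3 reached 12.9 CPM (183 counts) in scopolamine replicate 3, against 4.91 to 6.16 CPM in the other 3.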

How the results depend on the processing

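No adjusted p under 0.1 was found for any member under any alternative except DESeq2, which called 2. Over all genes the number called was 0 in edgeR, 193 with DESeq2 (144 higher and 49 lower), 9 without the 200 pg sham libraries, 5 with amplification cycles as a covariate, and 0 to 2 with each library left out. In the fit without the filter, from which 5 members were read, these were 0, 117 without the 200 pg sham libraries, 29 with cycles and 0 to 12 with each library left out (12 without sham replicate 5). The number of members whose groups did not overlap was 1, and ran from 1 to 4 with each library left out, with 4 without scopolamine replicate 4 (Nr4a1, Nr4a2 and Ier2 higher and Nr4a3 lower, where 2.62% of the genes with a count were higher and 2.17% lower) and 2 without replicate 1 (Nr4a1 and Arc higher, against 3.76% of the genes). Nr4a1, Nr4a2, Egr1, Arc and Ier2 kept a log2 fold change above 0 under every alternative that gave a value. The sign turned for Nr4a3 among the choices that left out 1 library (-3.28 to 0.56), namely scopolamine replicate 1 (0.049), 3 (0.0051) or sham replicate 8 (0.56), and without scopolamine replicates 2 and 3 together (0.52). It turned for Egr2 (-0.15) and Dusp1 (-0.69) without the latter pair, and for Dusp1 also with mouse ID series (-0.18) or without scopolamine replicate 3 (-0.040; 1 library left out, -0.040 to 0.51). For Ier3 it turned in limma-voom (-0.022), without the 200 pg sham libraries (-0.25), with a term for cycles (-0.22) or mouse ID series (-0.0036), without scopolamine replicate 3 (-0.32) or sham replicate 7 (-0.082; 1 library left out, -0.32 to 0.25), and without scopolamine replicates 2 and 3 (-0.25). The cause was not tested. Limma-voom was not run for members the filter removed. Counts of at most 1 for Egr3 and for Arc in sham, and of at most 4 for Nr4a1 in sham, lie at or near the floor, so their folds are imprecise.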
